A study of Mus musculus with 16 samples.

Results

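The 9 genes Acan, Vcan, Bgn, Dcn, Lum, Fmod, Prelp, Ogn and Aspn encode proteoglycans of the arterial wall, and they were followed through the single-cell libraries of the mouse thoracic aorta. They were taken by symbol from the 31055 features of the count matrices, and each symbol matched a single feature. The study asked which transcripts depend on Smad3, a transcription factor activated by TGF-β receptors, in vascular smooth muscle cells (VSMCs). Each of the 16 libraries came from 1 male mouse of the 129S6/SvEv strain and held live cells of the segment from the aortic root to the arch. Mice called Smad3SmKO were Smad3 lox/lox, and controls were Smad3+/+. Both genotypes carried a tamoxifen-inducible Cre driven by Myh11, so recombination was limited to cells that had used that smooth muscle promoter, and both received tamoxifen from 6 weeks of age. Aortas were taken 10 weeks after deletion (2 Smad3+/+ and 2 Smad3SmKO libraries) or 18 weeks after it (5 and 7). Some mice also carried a conditional green fluorescent tracer, EGFP-L10a.

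Proteoglycans are core proteins that carry chains of sulfated sugars. The large ones, aggrecan (Acan) and versican (Vcan), bind hyaluronan and form hydrated aggregates, and pooling of aggrecan and versican in the media is a known feature of aortic aneurysm tissue. The others belong to the small leucine-rich proteoglycans, which bind collagen fibrils and growth factors. Biglycan (Bgn), decorin (Dcn) and asporin (Aspn) form their class I. Lumican (Lum), fibromodulin (Fmod) and prolargin (Prelp) belong to class II, and osteoglycin (Ogn, also called mimecan) belongs to class III.

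Cells were sorted into types by marker counts. A VSMC held at least 5 UMIs (unique molecular identifiers, each marking 1 captured RNA molecule) of Myh11, the smooth muscle myosin, and more of Myh11 than of Dcn. A fibroblast held at least 5 UMIs of Dcn and more of Dcn than of Myh11. An endothelial cell held at least 2 UMIs of Pecam1 and Cdh5 together. Dcn is thus both a member and part of the gate, so its levels in these cells are a description, and it was tested only in cells chosen with Col1a1 and Pdgfra in its place. Of 50858 cells kept, 8950 were VSMCs, 36066 fibroblasts and 3303 endothelial cells. A further 1359 leukocytes (at least 2 UMIs of Ptprc and in no other gate) served as a background for free RNA. Levels are given as CPM, the UMIs of a gene after all UMIs that a library's cells of a type held were scaled to 1000000. The 7 VSMC markers summed to between 36331 and 73383 CPM in the VSMCs and the 9 fibroblast markers to between 17679 and 31911 CPM in the fibroblasts, and none was at 0 in its own type.

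Several features of the libraries bear on the values. Smad3 RNA in the VSMCs lay between 4.04 and 17.3 CPM in the libraries labelled Smad3SmKO of 18 weeks and between 2.83 and 9.89 CPM in Smad3+/+. These values rest on 2 to 150 UMIs a library and come from the 3′ end, which need not report on deleted exons, so they do not check the labels. In 4 libraries the green fluorescent transcript went against the tracer label. Both Smad3SmKO libraries of 10 weeks, labelled as without tracer, held 246 and 165 such UMIs, and Smad3+/+ replicates 4 and 5 of 18 weeks, labelled as traced, held 0. Libraries shared 5157 barcode sequences. Of these, 3507 were shared by Smad3+/+ replicates 4 and 5 of 18 weeks, the most of any 2 libraries. Over all libraries, 346 kept cells had more UMIs of the same barcode in another library. The 10-week libraries formed a batch of their own, number 4 by the labels, so time and batch cannot be told apart. Smad3SmKO replicate 7 of 18 weeks held 196 fibroblasts with values unlike the others. Without it, fibroblast levels ended at 5.17 CPM for Acan, 5547 for Bgn and 4820 for Lum and began at 318.4 for Ogn, 173 for Aspn and 52.2 for Fmod, and VSMC levels ended at 42.7 CPM for Acan, 4748 for Bgn and 110 for Lum.

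Most of these genes lie in clusters of related genes (GENCODE M21, mouse build GRCm38, all protein-coding). On chromosome 10, Dcn (97479609 to 97518143) and Lum (97565128 to 97572703) are separated by 47.0 kb on the plus strand. On chromosome 13, Aspn (49544443 to 49567565) and Ogn (49608046 to 49624501) are separated by 40.5 kb on the plus strand, with Omd between them and Ecm2 beside Aspn. On chromosome 1, Prelp (133910304 to 133921414, minus strand) and Fmod (134037254 to 134048277, plus strand) are 116 kb apart, and Optc, a further small leucine-rich proteoglycan gene, ends 2.30 kb from Prelp. Acan stands on chromosome 7 (79053483 to 79115099, plus strand), Vcan on chromosome 13 (89655312 to 89742509, minus strand) and Bgn on X (73483602 to 73495933, plus strand).

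Fmod and Prelp are neighbours whose levels part between VSMCs and fibroblasts, as described below, so the 200 bases before their start sites are shown (RefSeq, GRCm38.p6, 7 of the 9 genes had an entry). Capitals mark CAGAC or its reverse complement GTCTG, the core of the DNA element that Smad3 binds, searched on both strands. The window of Prelp is chr1:133921402-133921601 on the minus strand and that of Fmod chr1:134037054-134037253 on the plus strand.
Prelp: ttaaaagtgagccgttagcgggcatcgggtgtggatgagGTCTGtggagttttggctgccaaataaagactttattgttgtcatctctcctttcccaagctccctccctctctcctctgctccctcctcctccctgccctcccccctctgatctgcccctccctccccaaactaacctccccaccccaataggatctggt
Fmod: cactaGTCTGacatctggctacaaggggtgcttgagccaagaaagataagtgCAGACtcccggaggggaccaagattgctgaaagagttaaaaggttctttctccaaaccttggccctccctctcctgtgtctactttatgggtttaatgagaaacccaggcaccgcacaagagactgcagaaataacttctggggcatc
The core stood once in the window of Prelp and 2 times in that of Fmod, and in none of the windows of Acan, Vcan, Bgn, Ogn and Aspn. Of all 32851 promoter windows of the same length 35.5% held it, so its presence in 2 of 7 is a description of these letters. The windows ranged in GC content from 31.0% for Aspn to 74.0% for Acan, against a median of 53.0% over all of them.

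Of the 9 genes, Acan alone was higher in VSMCs than in fibroblasts, and the other members were lower. Background shares were 36% of the 11970 genes tested called higher in VSMCs and 38.5% called lower, against 1 and 8 of the 9 members. The median log2 fold change was -1.28 over the members and -0.02 over all genes. The comparison set the 2 types side by side within each library, with edgeR's quasi-likelihood test and Benjamini-Hochberg adjustment over all genes.

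Acan, the core of cartilage aggregates, had 2.93 to 48.2 CPM in VSMCs (median 11.0, 16 libraries) and 0.219 to 25.2 CPM in fibroblasts (median 1.54). VSMCs were the higher type in 16 of 16 libraries, with a log2 fold change of 2.67 ± 0.32 (SE; adjusted p = 3.5e-09). Although VSMCs were 17.6% of the kept cells, they held 59.8% of all Acan UMIs. Of these 1019 UMIs, 434 came from Smad3SmKO replicate 7 of 18 weeks. The 3 highest VSMC values came from Smad3SmKO replicates 7 and 4 and Smad3+/+ replicate 3 of 18 weeks, the last 2 with only 22 and 48 VSMCs.

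Vcan, the versican of loose matrix, went the other way. It had 24.9 to 97.2 CPM in VSMCs (median 51.7) and 91.7 to 532 CPM in fibroblasts (median 295). Fibroblasts were higher in 15 of 16 libraries, and the ranges touched only through Smad3+/+ replicate 1 of 10 weeks, where VSMCs had 97.2 and fibroblasts 91.7 CPM. The log2 fold change was -2.28 ± 0.19 (adjusted p = 7.02e-13).

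Among the class I genes, Bgn was abundant in both types, with 1922 to 5993 CPM in VSMCs (median 3159) and 2998 to 8270 CPM in fibroblasts (median 4247). Its log2 fold change of -0.33 ± 0.08 was small and passed the test (adjusted p = 0.00031), and fibroblasts were higher in 15 of 16 libraries. In the Smad3+/+ libraries alone the difference was -0.17 and did not pass (adjusted p = 0.13). With at most 1 UMI of the other type's marker allowed per cell it was -0.40 (adjusted p = 0.058). Aspn, which binds TGF-β, had 48.9 to 308 CPM in VSMCs (median 140) and 79.9 to 766 CPM in fibroblasts (median 280), with lower values in the VSMCs of every library and a log2 fold change of -1.28 ± 0.14 (adjusted p = 3.6e-10).

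Dcn had 86.2 to 299 CPM in VSMCs and 7780 to 17940 CPM in fibroblasts, a gap that the gate itself makes. In cells chosen without Dcn the medians were 424 and 11383 CPM, and the log2 fold change was -4.77 ± 0.23 (adjusted p = 1.4e-19). Lum, the neighbour of Dcn, showed a gap of the same order although it took no part in the gate. It had 42.8 to 252 CPM in VSMCs (median 68.2) and 1410 to 10362 CPM in fibroblasts (median 2846), without overlap and with a log2 fold change of -5.27 ± 0.17 (adjusted p = 5.8e-24). The Dcn gate can bear on Lum where both are in the same cells, and in cells chosen without Dcn the log2 fold change of Lum was -4.22 ± 0.16.

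Of the other class II genes, Fmod was near 0 in VSMCs (0 to 19.8 CPM, median 1.35) and had 40.2 to 311 CPM in fibroblasts (median 85.8), with a log2 fold change of -5.86 ± 0.29 (adjusted p = 2e-19). The VSMC value of 19.8 belonged to Smad3+/+ replicate 1 of 18 weeks. Its 21 UMIs lay in 2 of 97 cells, and in cells chosen without Dcn the level was 0.822 CPM. The VSMCs of this library also held the highest sum of cartilage markers of any library, 322.5 CPM against a median of 28.6. The part of such cells in its Fmod value was not tested. Prelp, which anchors basement membranes to collagen, had 141 to 317 CPM in VSMCs (median 253) and 315 to 643 CPM in fibroblasts (median 450), and the log2 fold change was -0.85 ± 0.10 (adjusted p = 4.1e-09). Ogn had 205 to 858 CPM in VSMCs (median 426) and 133 to 1664 CPM in fibroblasts (median 551). VSMCs were lower in 13 of 16 libraries and the log2 fold change was -0.43 ± 0.12 (adjusted p = 0.0014), but with the Smad3+/+ libraries alone it was -0.34 and did not pass (adjusted p = 0.15).

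**Figure D1:**
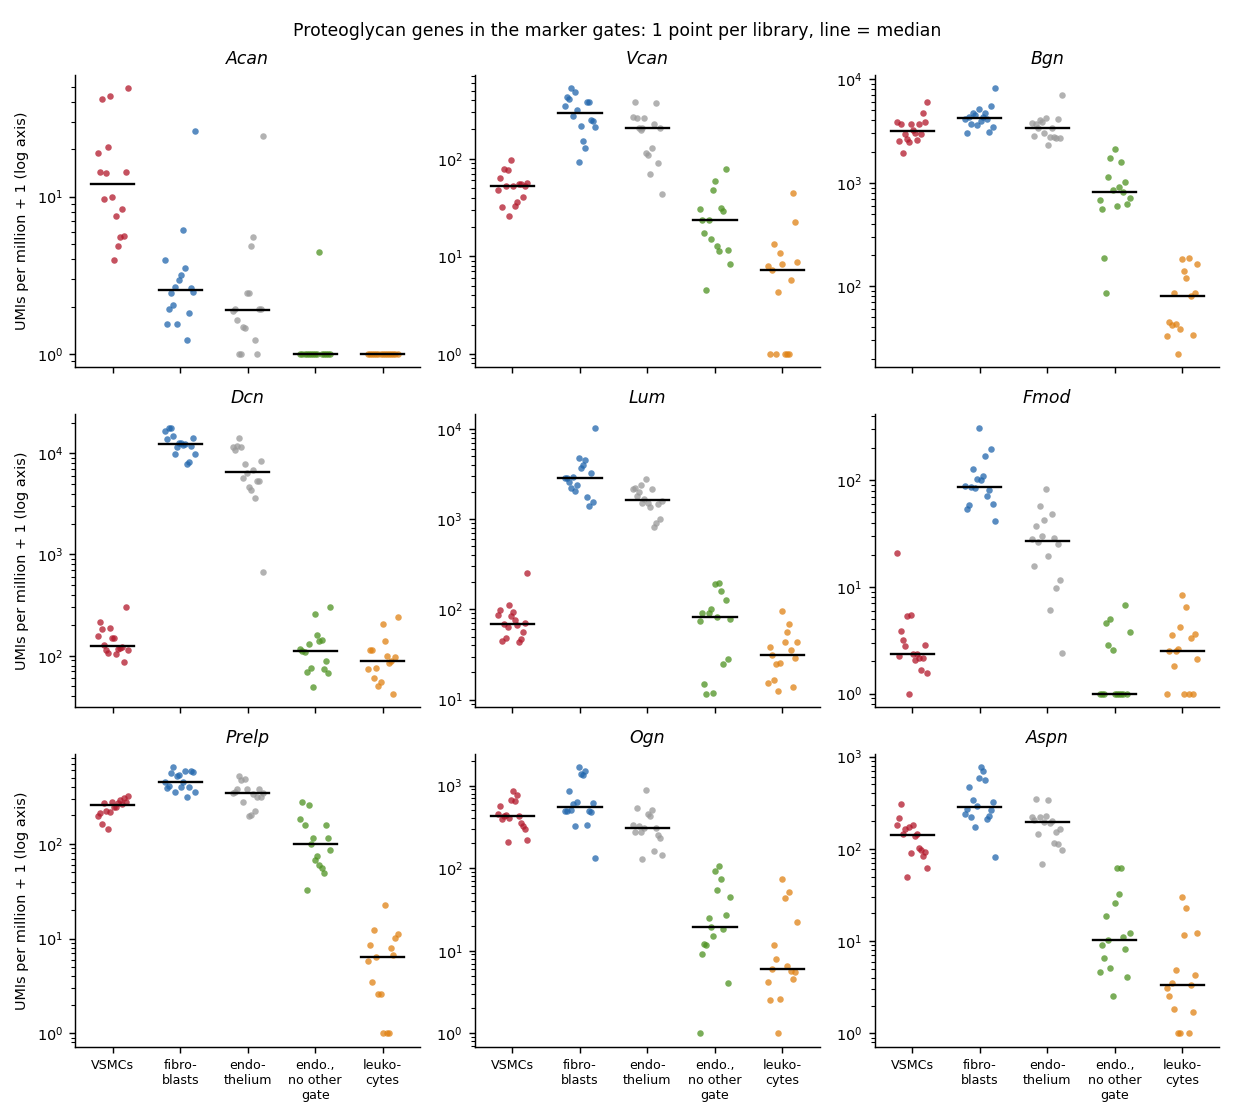
Level of each gene by marker gate, as CPM plus 1 on a log axis, with 1 point per library of at least 10 cells of the type and a line at the median. Endothelial cells are shown by the rule and again for cells in no other gate. Acan sits highest in VSMCs (median 11.0 against 1.54 CPM in fibroblasts), Lum, Fmod and Dcn sit far above the VSMCs in fibroblasts, and Bgn, Prelp, Ogn and Aspn are present in both.

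Fibroblasts, 70.9% of the kept cells, held most UMIs of every member but Acan. Their share was 99.6% for Dcn (chosen by the gate), 98.8% for Lum, 98.7% for Fmod, 95.3% for Vcan, 91.4% for Aspn, 86.0% for Prelp, 83.0% for Ogn and 79.7% for Bgn. VSMCs contributed 18.5% of the Bgn UMIs, 15.7% of those of Ogn and 12.5% of those of Prelp. These shares follow the cells that the digestion and the sort let through, and are not those of the intact wall.

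The share of cells with at least 1 UMI, after every cell was reduced at random to 2000 UMIs, was set against free RNA. The leukocytes, with a median depth of 6182 UMIs against 10824 in VSMCs and 10903 in fibroblasts before thinning, gave the background. The gate limits Dcn in both types, so Dcn and Lum were read in cells chosen without Dcn. There Dcn was found in 15.5% to 48.5% of VSMCs (median over libraries 23.3%) and in 5.56% to 49.0% of leukocytes (20.6%), and Lum in 8.28% to 19.4% (12.9%) and 2.44% to 26.7% (8.96%). These ranges overlapped, and the counts of Dcn and Lum in VSMCs were not read as expression. Bgn was found in 98.4% of VSMCs against 15.4% of leukocytes, Ogn in 49.0% against 1.92%, Prelp in 36.6% against 0.621%, Aspn in 18.2% against 0% and Vcan in 9.06% against 0%. For Bgn, Ogn and Prelp the ranges over libraries did not overlap. For Aspn they did (6.78% to 35.4% of VSMCs and 0% to 10.0% of leukocytes), and for Vcan too (6.15% to 18.6% and 0% to 6.33%). The leukocyte share of 6.33% was that of Smad3+/+ replicate 5 of 18 weeks. Before thinning, 61 Vcan UMIs lay in 12 of its 158 leukocytes, and 18 Lum UMIs in 17 of them. Whether Vcan in leukocytes was free RNA was not tested. Acan was found after thinning in 2.08% of VSMCs and 0.175% of fibroblasts. It was in 0 of 1359 leukocytes, which allows a share of up to 0.221% (counting error only). Without thinning, the VSMC shares were 5.99% for Acan, 30.1% for Vcan, 82.4% for Ogn and 100% for Bgn.

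The endothelial gate did not isolate the endothelium. Of its 3303 cells, 62.0% also passed another gate, 1813 that of fibroblasts and 236 that of VSMCs, and whether those were doublets or cells with free RNA was not tested. By the rule no member was higher in endothelium than in fibroblasts, where 18.2% of genes were called higher and 22.6% lower. Besides Acan, each of the 8 others was lower, Dcn in cells chosen without it, with log2 fold changes from -2.06 (Fmod) to -0.44 (Bgn). Against endothelium by the rule, VSMCs were higher in Acan and Ogn and lower in Vcan, Lum, Fmod, Prelp and, in cells chosen without it, Dcn, while Bgn and Aspn did not pass (34.2% of all genes were called higher and 34.2% lower). The Prelp difference was small (-0.28 ± 0.10, adjusted p = 0.019) and did not pass without Smad3SmKO replicate 4 of 18 weeks (adjusted p = 0.05004).

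In the 1250 endothelial cells that passed no other gate, in 15 libraries, Bgn had the highest median of the members. Bgn had 85.2 to 2143 CPM (median 810 in place of 3419 by the rule), Prelp a median of 99.3 CPM, Vcan 22.3, Ogn 18.2 and Aspn 9.30, and Acan was at 0 in 14 of 15 libraries. Lum, with a median of 82.3 CPM and a thinned share of 7.59%, did not exceed the leukocyte share. Against fibroblasts all 8 members tested were then lower (background 30.1% of genes higher and 32.9% lower), from a log2 fold change of -2.15 ± 0.22 for Prelp to -6.22 ± 0.29 for Fmod. VSMCs then exceeded endothelium in 6 members (33% of genes higher and 34.1% lower), by a log2 fold change of 6.53 ± 1.08 for Acan, 4.39 ± 0.27 for Ogn, 3.65 ± 0.30 for Aspn, 2.15 ± 0.21 for Bgn, 1.33 ± 0.29 for Vcan and 1.19 ± 0.22 for Prelp. Lum had a log2 fold change of -1.39 ± 0.26 and Fmod did not pass. The Lum share was 7.59% in endothelium and 5.76% in VSMCs of that gate, both under the leukocyte median of 9.23%, and the fold change was not read as a difference in expression. The direction for Vcan, Prelp and Aspn was thus the opposite of that found with the rule's gate.

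The chromosomal clusters were then compared gene by gene. On chromosome 10, Dcn, Lum and Epyc were all fibroblast genes. Epyc, of class III, had 18.5 to 113 CPM in fibroblasts and 0 to 1.24 CPM in VSMCs (log2 fold change -6.83 ± 0.25). Kera, the corneal keratocan between Lum and Epyc, was at a median of 0 CPM in VSMCs and 0.707 in fibroblasts and was not tested. On chromosome 13 all 4 genes were lower in VSMCs, with -0.24 ± 0.10 for Ecm2, -1.28 for Aspn, -1.87 ± 0.21 for Omd and -0.43 for Ogn. On chromosome 1 the neighbours went 3 ways. Optc (opticin) was 47.3-fold higher in VSMCs, with 74.7 to 248.7 CPM there and 0.812 to 12.8 CPM in fibroblasts (log2 fold change 5.57 ± 0.29, adjusted p = 1.4e-18). Prelp was in both types, and Fmod had 98.7% of its UMIs in fibroblasts.

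**Figure D2:**
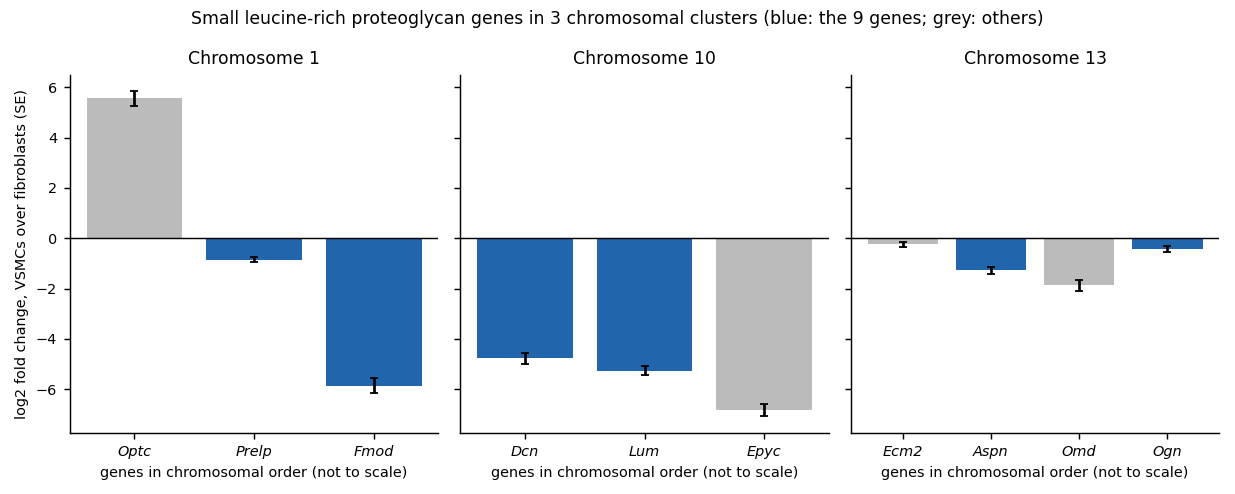
Log2 fold change of VSMCs over fibroblasts, with bars to 1 SE, for the small leucine-rich proteoglycan genes of 3 chromosomal clusters in their order along the chromosome. Dcn is from cells chosen without it. The chromosome 10 genes all point to fibroblasts, those of chromosome 13 do so by -0.24 to -1.87, and those of chromosome 1 run from 5.57 for Optc to -5.86 for Fmod.

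VSMCs with more UMIs of Notch3 and Enpep than of Ptprz1 and Tes (at least 2 of the former, 541 cells over all libraries) were set against those with the reverse (4605 cells) in the 14 libraries that held at least 10 of each. Of 7 members tested, 2 were higher and 2 lower in the Notch3/Enpep cells, where 13.1% and 12.6% of 5712 genes were called. Vcan was lower in 14 of 14 libraries, with 0 to 33.2 CPM (median 11.0) against 35.1 to 131.6 CPM (median 61.8), without overlap. Its log2 fold change was -2.13 ± 0.26 (adjusted p = 6.8e-07).

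Prelp was lower in the Notch3/Enpep cells of 14 of 14 libraries too, with medians of 145 and 268 CPM and a log2 fold change of -0.87 ± 0.08 (adjusted p = 7.5e-09). Aspn was higher in 14 of 14, with medians of 212 and 102 CPM and a log2 fold change of 0.98 ± 0.12 (adjusted p = 9.6e-07). Dcn, in cells chosen without it, was higher by 0.86 ± 0.26 (adjusted p = 0.014), and the part of free RNA in this value was not tested. Bgn (-0.21), Lum (0.56) and Ogn (0.24) did not pass. Bgn passed when any 1 of 5 libraries was left out, Smad3+/+ replicate 1 and Smad3SmKO replicates 1, 2, 5 and 7 of 18 weeks (-0.26 to -0.24). Lum passed without Smad3+/+ replicate 1 or Smad3SmKO replicate 6 (0.63 in each case), and Ogn without Smad3SmKO replicate 1 (0.30). Lum was higher in only 7 of 14 libraries, with medians of 40.3 and 38.2 CPM, and its counts in VSMCs were not read as expression. Acan was too low for the count filter, and its values are given as a description. It had 0 to 87.8 CPM in the Notch3/Enpep cells (median 32.6, 237 UMIs) and 0 to 38.2 CPM in the others (median 4.94, 412 UMIs), and was higher in 13 of 14 libraries. The exception was Smad3+/+ replicate 1 of 10 weeks, with 0 against 7.22 CPM. The digestion-response genes, such as Fos and Jun, summed to a median of 8240.5 CPM in the Notch3/Enpep cells and 3610.5 in the others, and their part in these differences was not tested.

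Fibroblasts were split by marker counts as well. Cells with at least 2 UMIs of Chad and Thbs4 together, and more of these than of Dpp4 and Pi16, numbered 893. Chad and Thbs4 are genes of tendon and cartilage matrix. Cells with the reverse numbered 27177, Dpp4 and Pi16 being markers of adventitial fibroblasts. In the 14 libraries with both, 5 members were higher and 1 was lower in the Chad/Thbs4 cells, where 11.4% and 14.4% of 11078 genes were called. Acan had 19.5 to 118 CPM in them (median 48.6) and at most 0.807 CPM in the Dpp4/Pi16 cells (median 0.0786), a log2 fold change of 8.36 ± 0.29 (adjusted p = 7e-15). Chad/Thbs4 cells were 2.48% of the fibroblasts and held 70.8% of their Acan UMIs, 448 of 633.

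Fmod, which organises collagen in tendon, was higher in the Chad/Thbs4 cells, with a median of 551 CPM against 88.2 in the Dpp4/Pi16 cells (log2 fold change 2.39 ± 0.19, adjusted p = 2.1e-09). Prelp had 811 to 2076 CPM in the Chad/Thbs4 cells and 301 to 580 in the others, without overlap (1.64 ± 0.11). Lum was higher by 0.77 ± 0.08 and Dcn, in cells chosen without it, by 0.65 ± 0.09. Each of Acan, Fmod, Prelp and Lum was higher in 14 of 14 libraries. Ogn was lower in 13 of 14, with medians of 352 and 608 CPM (-0.91 ± 0.11, adjusted p = 9.6e-07). Aspn (0.10), Bgn (0.06) and Vcan (-0.29) did not pass, Vcan passing without Smad3SmKO replicate 2 of 18 weeks (-0.35, adjusted p = 0.045). Cartilage markers summed to 2810 to 10167 CPM in the Chad/Thbs4 cells and 64.2 to 736 CPM in the others. Chad, one of them, was part of the gate.

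**Figure D3:**
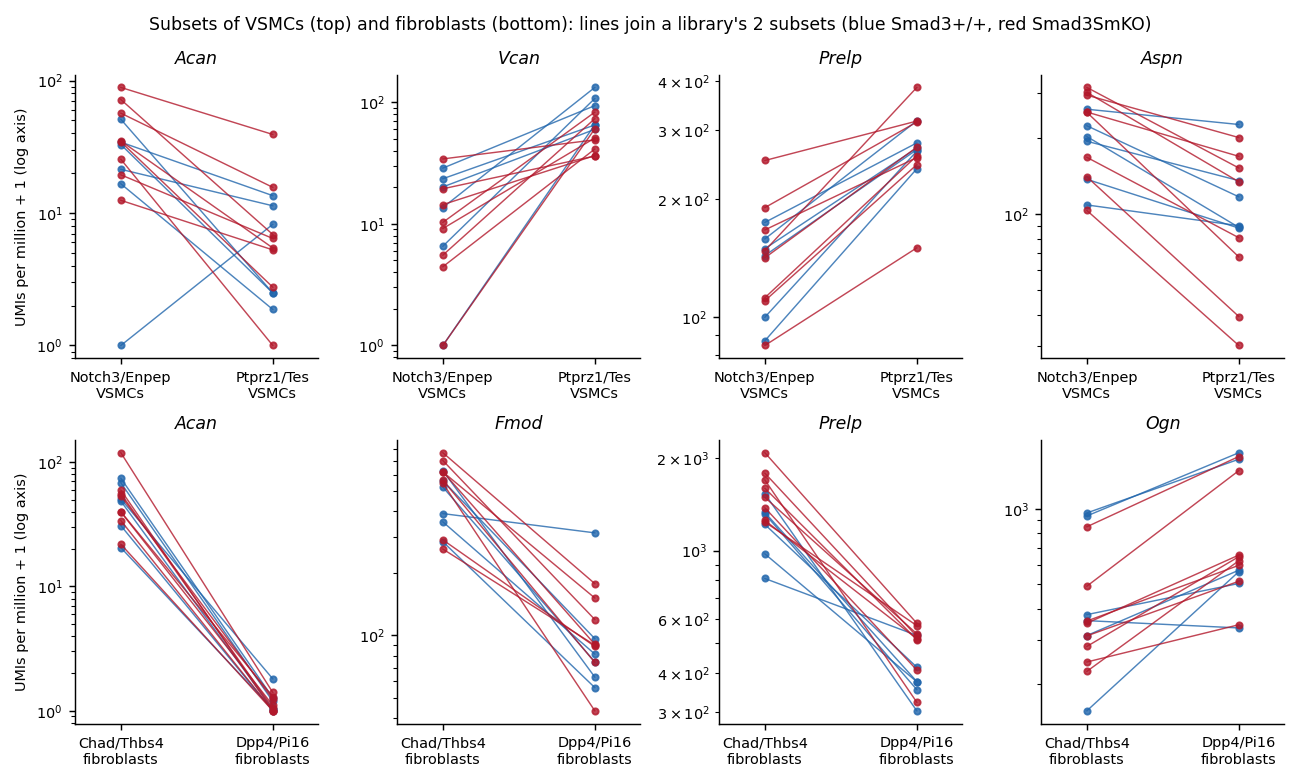
Levels in paired subsets of VSMCs (top) and fibroblasts (bottom), as CPM plus 1 on a log axis. Each line joins the 2 subsets of 1 library, blue for Smad3+/+ and red for Smad3SmKO. Vcan and Prelp are lower and Aspn higher in the Notch3/Enpep VSMCs of all 14 libraries, and Acan, Fmod and Prelp are higher in the Chad/Thbs4 fibroblasts of all 14.

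No member passed the test for genotype in any cell type at either time. In VSMCs at 18 weeks 5 of 11848 genes were called, or 0.0422%, with 581 at an unadjusted p under 0.05, and 0 of the 9 members reached even that. The median log2 fold change (Smad3SmKO over Smad3+/+, batch in the model) was -0.23 over the members and -0.01 over all genes. Without the 4 libraries whose label and green fluorescent transcript disagree, 0 genes were called. At 18 weeks these include every Smad3+/+ library digested for 60 min rather than 30 min. With batch in the model, the genotype effect then rests on the libraries of 30 min alone.

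Bgn illustrates the spread in VSMCs at 18 weeks. The Smad3+/+ libraries had 3865, 2516, 3700, 3678 and 2949 CPM, and the Smad3SmKO libraries had 1922 to 5993 CPM with a median of 2975. The groups overlapped, and the log2 fold change was -0.28 with a 95% interval from -0.63 to 0.08. The 2 highest Smad3SmKO values, 4748 and 5993 CPM, came from replicates 5 and 7, which form batch 5 with no Smad3+/+ library, so with batch in the model they add nothing to the genotype effect. Without the 4 libraries of conflicting tracer the log2 fold change was -0.55 ± 0.20 for Bgn, -0.79 ± 0.37 for Aspn and -0.19 ± 0.88 for Acan, and none passed (adjusted p from 0.90 to 1). Those values rest on the libraries digested for 30 min, so conflicting tracer and digestion time cannot be told apart in them. With all libraries, Aspn had the lowest p of the members. Its Smad3+/+ values were 180, 214, 308, 101 and 97.3 CPM and the Smad3SmKO values ran from 48.9 to 171 CPM with a median of 91.0. Smad3SmKO was lower in each of the 4 batches that held both genotypes, by a log2 ratio of -1.10 to -0.13, and the model gave -0.53 ± 0.29 (unadjusted p = 0.09, adjusted p = 1). For Acan the Smad3+/+ values were 17.9, 13.3, 41.0, 4.57 and 7.34 CPM against 4.60 to 48.2 CPM with a median of 13.4 in Smad3SmKO. Its interval ran from -0.93 to 1.74 on the log2 scale, which is too wide for a modest change to be detectable at this depth.

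Vcan in VSMCs at 18 weeks had 47.2, 62.7, 31.1, 53.5 and 53.6 CPM in Smad3+/+ and 24.9 to 77.9 CPM (median 51.7) in Smad3SmKO, with a log2 fold change of 0.15 (interval -0.33 to 0.63). At 10 weeks it had 97.2 and 51.6 CPM in Smad3+/+ and 32.0 and 35.0 CPM in Smad3SmKO, without overlap. The log2 fold change there was -1.11 ± 0.30, with an unadjusted p of 0.002 and an adjusted p of 1 in edgeR's quasi-likelihood test. At 10 weeks 0 genes were called in VSMCs (0% of those tested), 220 had an unadjusted p under 0.05 and DESeq2 called 1. With no filter on low counts, 51 genes were called, Vcan among them (adjusted p = 0.000748). Both Smad3SmKO libraries of 10 weeks are among those whose tracer label and transcript disagree, and no value without them exists. With 2 libraries a group, 28.2% of all genes had ranges that did not overlap. So did 4 of the 8 members outside the gate (Vcan, Bgn, Lum and Fmod, each lower in Smad3SmKO). The closest Fmod values were 1.368 CPM (7 UMIs) in Smad3+/+ replicate 2 and 1.338 CPM (8 UMIs) in Smad3SmKO replicate 2, both near the floor. Lum counts in VSMCs were not read as expression, as stated above.

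The difference between the effects at 18 and 10 weeks was 1.26 ± 0.39 for Vcan on the log2 scale (unadjusted p = 0.005, adjusted p = 1), in a test that called 1 gene of 11848 (0.00844%). It passed with no filter on low counts (adjusted p = 0.0057). For the other members tested it ran from -0.57 (Aspn) to 0.59 (Acan).

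In fibroblasts, which do not carry the deletion by design, 0 genes were called for genotype at 18 weeks (0%, 362 at an unadjusted p under 0.05, 3 by DESeq2) and 0 at 10 weeks (0%, 119 and 3). Prelp had the lowest p of the members at 18 weeks. Its Smad3+/+ values were 452, 388, 407, 315 and 397 CPM and its Smad3SmKO values ran from 355 to 643 CPM with a median of 562. Smad3SmKO was higher in 4 of 4 batches with both genotypes, and the model gave 0.45 ± 0.20 (unadjusted p = 0.042, adjusted p = 1). Lum, at 1557 to 10362 CPM in Smad3SmKO and 2857, 2835, 2589, 1754 and 1410 CPM in Smad3+/+, had a log2 fold change of -0.14 (interval -0.67 to 0.38). Its highest value belonged to Smad3SmKO replicate 7, and the others of that group ended at 3257 CPM. The fibroblasts of replicate 7 also held the highest sum of VSMC markers, 11599 CPM against a median of 2074 over all libraries, and the part of those cells in its values was not tested.

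In endothelium by the rule 0 genes were called at 18 weeks (0%, 361 at an unadjusted p under 0.05, 0 by DESeq2) and 0 at 10 weeks (0%, 427 and 7). Acan was too low there to be tested. Vcan had the lowest p at 18 weeks, with a log2 fold change of -0.47 ± 0.20 (unadjusted p = 0.038, adjusted p = 1). The direct test of VSMCs minus fibroblasts at 18 weeks called 0 genes (0%, 631 at an unadjusted p under 0.05, 3 by DESeq2). Aspn (-0.65), Fmod (-1.85), Bgn (-0.38) and Prelp (-0.37) had an unadjusted p under 0.05 in it. In the libraries digested for 30 min alone, Bgn (-0.61, adjusted p = 0.026) and Fmod (-3.19, adjusted p = 0.005) passed. In these libraries Fmod in VSMCs had 19.8, 1.24 and 2.83 CPM in Smad3+/+ and 0 to 4.35 CPM in Smad3SmKO, and the 19.8 came from 21 UMIs in 2 cells of replicate 1. Over both digestion times its difference was 0.66 without that library and 0.48 in cells chosen without Dcn, neither of which passed. In the libraries digested for 60 min alone, Bgn (0.28) and Fmod (1.44) had the other sign. Batch 5 held no Smad3+/+ library, so these values rest on Smad3SmKO replicate 6 against Smad3+/+ replicates 4 and 5 of batch 6. In both of these Smad3+/+ libraries the green fluorescent transcript went against the tracer label. The effects at 60 min and at 30 min are thus not like estimates.

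**Figure D4:**
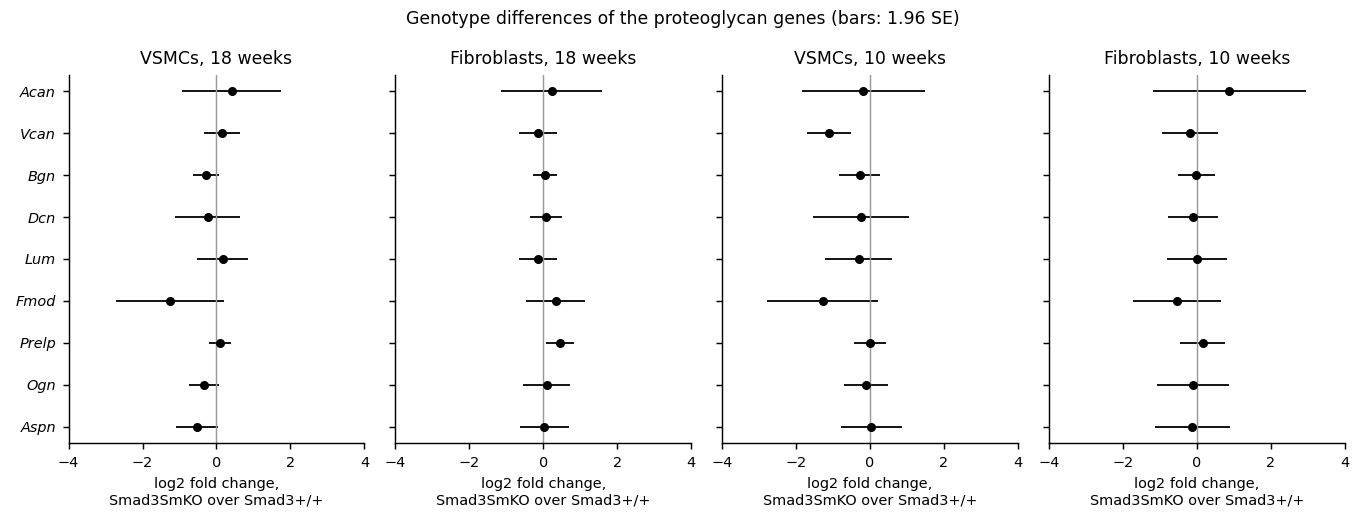
Log2 fold change of Smad3SmKO over Smad3+/+ for each gene in VSMCs and fibroblasts at 18 and 10 weeks, with bars to the 95% interval. Dcn is from cells chosen without it. No member passed the adjusted threshold, and the value farthest from 0 beside its error is that of Vcan in VSMCs at 10 weeks (-1.11 ± 0.30).

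Ogn and Aspn, the pair on chromosome 13, were higher at 10 than at 18 weeks in fibroblasts of both genotypes. Time was a separate batch, so these values were not tested. The 10-week libraries were also shallower, with medians of 4528 to 6034 UMIs per kept cell, against 6420 to 21884 at 18 weeks. In leukocytes Ogn had 73.4, 42.9, 5.46 and 50.5 CPM at 10 weeks and at most 21.2 CPM at 18. The part of depth and free RNA in the values below was not tested. Ogn had 1664 and 1384 CPM in the Smad3+/+ and 1341 and 1488 CPM in the Smad3SmKO libraries of 10 weeks, against 133 to 846 CPM (median 490) in the 12 libraries of 18 weeks, or 318.4 to 846 CPM without Smad3SmKO replicate 7. Aspn had 584, 766, 702 and 555 CPM at 10 weeks, in the same order, against 79.9 to 472 CPM (median 252), or 173 to 472 CPM without replicate 7. Neither range overlapped, and of the 8 members outside the gate they were the only ones of which that was true in fibroblasts, where 14.3% of 14622 genes did not overlap between the times.

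In VSMCs only Ogn did not overlap (10.3% of 11848 genes), with 650.5 to 858 CPM at 10 weeks and 205 to 570 CPM at 18. Lum in fibroblasts had 3732 to 4820 CPM at 10 weeks and, without Smad3SmKO replicate 7, 1410 to 3257 CPM at 18. Vcan in fibroblasts had 91.7 to 216 CPM at 10 weeks, and 210 to 532 CPM at 18. All 10-week cells were digested for 60 min. Among the 18-week libraries with the same digestion, Ogn in fibroblasts had 133 to 617 CPM and Aspn 79.9 to 325 CPM. These libraries are part of those compared above, so for Ogn and Aspn the lack of overlap was given beforehand. The part of digestion time in these values was not tested. Vcan had 210 to 380 CPM in the 18-week libraries of 60 min and overlapped the 10-week values, through replicate 7 alone.

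**Figure D5:**
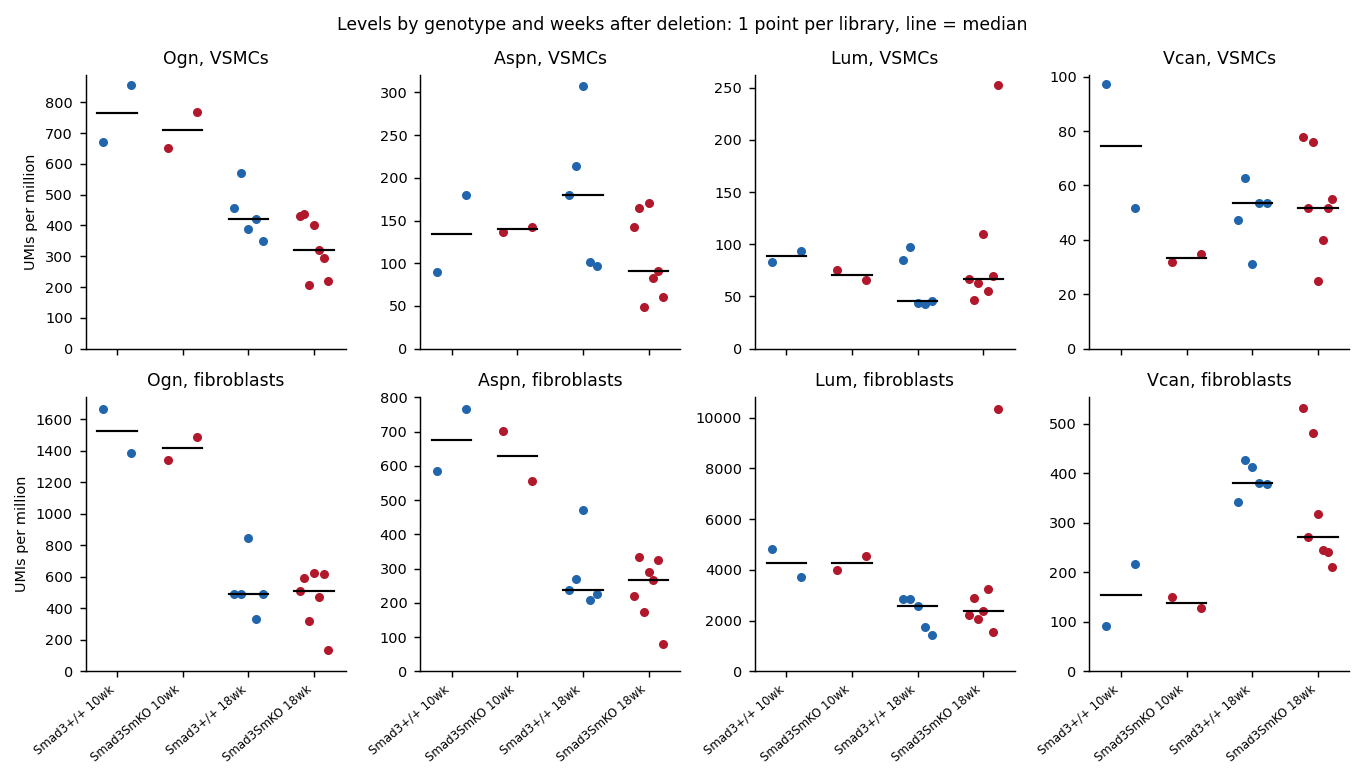
Ogn, Aspn, Lum and Vcan in VSMCs (top) and fibroblasts (bottom) by genotype and weeks after deletion, as CPM on an axis from 0, with 1 point per library and a line at the median. In fibroblasts Ogn and Aspn of the 4 libraries of 10 weeks lie above all 12 of 18 weeks, and Lum of Smad3SmKO replicate 7 stands at 10362.

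Related genes were counted from lists of the same pathway. Of 11 other small leucine-rich proteoglycans, 8 were tested between VSMCs and fibroblasts, and 1 was higher (Optc) and 6 lower in VSMCs. Over all genes 36% were called higher and 38.5% lower, against which the counts of each list are to be read. Of 25 basement membrane and cell surface proteoglycans, 18 were tested, and 8 were higher and 10 lower. Col18a1, a collagen with heparan sulfate chains, was higher in VSMCs by a log2 fold change of 4.58 ± 0.21, and Prg4, the lubricin of joints, was lower by -7.17 ± 0.37.

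Chondroitin and dermatan sulfate synthesis builds chains that some, not all, of these core proteins carry. Of 24 genes of this synthesis, 22 were tested, and 1 was higher and 17 lower in VSMCs. The one was Chst3, a sulfotransferase of chondroitin, at 2.67 ± 0.17, while Papss2, which supplies activated sulfate, was at -2.84 ± 0.15. Of the hyaluronan genes, 8 of 15 were tested, and 1 was higher and 5 were lower. The synthases Has1 (-6.83 ± 0.29) and Has2 (-6.32 ± 0.33) were lowest. Of 9 proteases that cleave the large proteoglycans, 6 were tested, and 2 were higher and 3 lower, with Adamts4 at -3.62 ± 0.32 and Adamts5 at -2.23 ± 0.16.

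Between the fibroblast subsets 11.4% of all genes were called higher and 14.4% lower. Of the lists, 6 of 22 synthesis genes were higher and 1 lower, 8 of 17 basement membrane and cell surface genes higher and 5 lower, 4 of 7 other small leucine-rich proteoglycans higher and 2 lower, and 2 of 7 hyaluronan genes higher and 2 lower. In the Chad/Thbs4 fibroblasts Hapln1, the link protein that fixes aggrecan to hyaluronan, was higher than in the Dpp4/Pi16 cells by a log2 fold change of 3.06 ± 0.32 and Cspg4 by 2.58 ± 0.15. Has1 was lower by -3.03 ± 0.23, and 5 of the 6 proteases tested were lower, among them Adamts4 (-2.18 ± 0.30) and Adamts5 (-1.88 ± 0.11). Between the VSMC subsets, where 13.1% of all genes were higher and 12.6% lower, 1 of 8 synthesis genes was higher and 1 lower, and 3 of 14 basement membrane and cell surface genes were higher and 5 lower. In the Notch3/Enpep VSMCs both proteases tested were higher, Adamts1 by 1.65 ± 0.12 and Adamts5 by 0.68 ± 0.18, and Optc was lower by -1.06 ± 0.11. For genotype none of the listed genes passed in any cell type at either time. The lowest unadjusted p among the listed genes in VSMCs at 18 weeks was that of Chad (0.00015, adjusted p = 0.29), a gene at a median of 0.310 CPM there.

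The genes whose levels were most like each member were sought over the 48 sums of VSMCs, fibroblasts and endothelium by Pearson's r of log2(CPM + 1). These points share libraries and, in the endothelial gate, cells, so r is a description. Acan was most like Pln (r = 0.86), Serpini1 and Mfge8, and Vcan most like Bmper (r = 0.92), Ccdc80 and Prr5. Ogn was closest to Notch2 (r = 0.81) and Ecm2 (r = 0.80), and Aspn to Gng8 (r = 0.83) and Omd (r = 0.80). Ecm2 and Omd lie in the same cluster on chromosome 13 as Ogn and Aspn. Lum was most like Lamp2 (r = 0.96), Fmod like Hsd11b1 (r = 0.93), Prelp like Itgbl1 (r = 0.89), Dcn like Fbln1 (r = 0.99) and Bgn like Ctsd (r = 0.78), the lowest of these values.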

How the data were processed

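Live cells of 16 mouse aortas were profiled by 10x 3′ single-cell RNA sequencing. The authors aligned reads to mm10 with a GFP sequence added and deposited filtered counts, whole UMIs per gene and cell. Per the labels the processing notes name Cell Ranger 6 and Seurat 4, while the file headers name Cell Ranger 4.0.0. Matrices held 12539539 to 52843031 UMIs per library and 66349 cells, of which 50858 (76.7%) had 600 to 6000 genes, 2000 to 50000 UMIs and under 25% mitochondrial UMIs. No doublet caller was run. Counts were summed per library and cell type (at least 10 cells) and tested with edgeR 4.0.16 (TMM, quasi-likelihood test, Benjamini-Hochberg adjustment over all genes, threshold 0.05) in R 4.3.3. Genotype was fitted with batch as a term, and cell types and subsets with the library as a block. Intervals are 95% intervals from the SE of the fit. The fits were tested on simulated data. Groups came from the labels, and each library was 1 mouse. Alternatives covered DESeq2 1.42.0, library totals without TMM, no filter on low counts, no batch term, digestion times apart, other gates and leaving out each library. The gates without shared barcodes and of endothelium in no other gate were added after seeing the data. The members and lists were chosen with earlier results of these data known. All 9 members are named. From the other lists the text names up to 3 genes of largest change in a cell type or subset comparison and the gene of lowest p for genotype, and for likeness the 3 genes of highest r. Neighbours in the chromosomal clusters were named for their place.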

Additional observations from a re-analysis of the deposited data

Results flagged for a closer look

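In 54 groups tested, 8 library values stood apart from the rest of their group by Dixon's test at the 95% level, where chance alone flags 1 group in 20 (2.7 groups). Smad3SmKO replicate 7 of 18 weeks gave 5 of them. In its 196 fibroblasts Lum was 10362 CPM, against 1557 to 3257 in the other libraries of the group, and Acan was 25.2 CPM against 0.554 to 1.67. In its VSMCs Lum was 252 CPM against 46.8 to 110. In its 31 endothelial cells Acan was 23.4 CPM against 0 to 0.941 and Bgn was 7066 CPM against 2691 to 4115. VSMC markers summed to their highest level of any library in those fibroblasts (11599 CPM) and in those endothelial cells (30486 CPM), and their part in these values was not tested.

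The other 3 belonged to Smad3+/+ libraries of 18 weeks. Replicate 1 had 19.8 CPM of Fmod in 97 VSMCs, from 21 UMIs in 2 of the cells, against 0.655 to 2.83 (0.822 CPM in cells chosen without Dcn), and 2.93 CPM of Acan in fibroblasts, against 0.219 to 0.938. Replicate 3 had 472 CPM of Aspn in fibroblasts, against 207.6 to 269.5.

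The GFP transcript, which no comparison used, was found in libraries labelled as without tracer. Smad3SmKO replicate 1 of 10 weeks held 246 UMIs and replicate 2 held 165.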

How the results depend on the processing

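No paired analysis was run between genotypes because each library was 1 mouse of 1 genotype. Genotype was fitted with batch as a term, and cell types and subsets with the library as a block. The cause of the changes below was not tested. For genotype in VSMCs at 18 weeks, 5 genes were called, with 8 by DESeq2, 133 with no filter on low counts and 1 with no batch term. The libraries of that time alone gave 3 and the stricter gate gave 3. Leaving out each library gave 2 to 6 (2 without Smad3+/+ replicate 2 or Smad3SmKO replicate 4 or 6). Without the libraries whose GFP goes against the label, 0 were called, and the genotype effect then rests on 30 min digestions alone. The 60 min digestions held only Smad3SmKO replicate 6 in a batch with Smad3+/+, so no count is given for them. At 10 weeks, where 0 were called, DESeq2 called 1, the libraries of that time alone 1, and no filter 51, with 1 member. For the difference of these effects, where 1 was called, DESeq2 called 0, no batch term 0, no filter 70, with 1 member, and leaving out a library 0 (Smad3SmKO replicate 6) to 1. Fibroblasts, with 0 called, gave 3 by DESeq2 at 18 weeks, and at 10 weeks 3 by DESeq2 and 1 with that time alone. Endothelium, with 0 called, gave 120 with no filter at 18 weeks, and 7 by DESeq2 and 38 with no filter at 10. For VSMCs minus fibroblasts, with 0 called, the counts were 3 by DESeq2, 30 with no filter, 3 with all deposited barcodes, 51 in 30 min digestions (2 members), and 0 to 5 when leaving out a library (4 without Smad3SmKO replicate 5, 5 without replicate 7).

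Between VSMCs and endothelium in no other gate, Vcan (1.33), Prelp (1.19) and Aspn (3.65) had the opposite sign to the main gate. Smad3+/+ libraries alone called 2633 genes between endothelium and fibroblasts (4878 with all), 908 between the VSMC subsets (1472) and 1356 between the fibroblast subsets (2862). Between the VSMC subsets, 3 members besides Dcn were called, with 6 under no filter (2559 genes), 5 in the gate without Dcn, and 3 to 6 when leaving out a library. Precision was limited by VSMC sums of 22 to 1706 cells and by 2 libraries a group at 10 weeks.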
